A study of Homo sapiens with 12 samples.

Results

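The nuclear pore complex genes and nuclear transport receptor genes were followed in MCF10A-HER2-FKBP-HA cells, a human breast epithelial line in which chimeric ErbB receptors can be paired at will. The genes were chosen by symbol: those beginning with NUP and a number, KPNA or KPNB, together with AAAS, SEH1L, SEC13, NDC1, TPR, RANBP2, RAE1, XPO1, CSE1L, RAN and RANBP1, each read from a probe set that names 1 gene. The rule found 42 genes among the 18417 measured, 30 of them pore genes and 12 of them receptor or Ran cycle genes. NUP62 and POM121 were named only by probe sets shared with other genes and are not among the 42, and NUP210P1, a pseudogene of NUP210, was taken in by its symbol.

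Total RNA was measured on 12 single-colour oligonucleotide arrays, 3 dishes in each of 4 groups. AP1510, a synthetic bivalent ligand of FKBP, was given to 3 dishes to join HER2-FKBP-HA chimeras to each other. TGF-alpha, a ligand of the EGF receptor, was given to another 3, heregulin, a ligand of HER3 and HER4, to another 3, and the last 3 were untreated. Every group, the untreated one included, carried the stably transfected full-length human HER2 chimera with FKBP and HA tags in the MCF10A background. The cells of every group were maintained with horse serum at 5% and EGF at 20 ng/ml. All were then kept without serum and EGF from 24 hours before ligand was added. The medium still held cholera toxin at 100 ng/ml, hydrocortisone at 500 ng/ml and insulin at 10 µg/ml. RNA was taken 48 hours after the ligand. The sources used here do not say whether the line is 1 clone, and name no ligand dose, no vehicle and no hour of harvest for untreated dishes. The 3 dishes of a group are dishes of one line, so the p-values below measure the spread between dishes. Levels are log2 intensities, and the level of one probe set cannot be set against that of another.

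The epithelial label was checked with 5 basal markers measured of 7 listed. KRT5 stood at 12.02 in AP1510 cells, 12.59 in TGF-alpha cells, 12.32 in heregulin cells and 11.50 in untreated cells. CDH1 stood at 10.74 to 11.12, CDH3 at 9.69 to 10.15, ITGB4 at 9.725 to 10.66 and KRT14 at 7.38 to 8.01. KRT5, KRT14 and ITGB4 were higher with TGF-alpha than in untreated cells, CDH3 was lower and CDH1 did not pass. KRT5 and KRT14 were also higher with AP1510 and with heregulin. Among 4 fibroblast markers the median was 4.98 to 5.2, and COL1A1 stood at 6.61 to 6.86. The 4 leukocyte markers measured of 5 listed had a median of 3.65 to 3.71 in the groups, with PTPRC at 2.92 to 3.01, near the bottom of a scale that ran from 1.75 to 14.2. Among 4 endothelial markers PECAM1 stood at 8.21 to 8.67, while VWF stood at 3.999 to 4.17. PECAM1 was lower in heregulin than in untreated cells, with a log2 difference of -0.33 (limma adjusted p 0.022). KDR and CDH5 moved in opposite directions with TGF-alpha against untreated cells, KDR by 0.98 (limma adjusted p 1.9e-04) and CDH5 by -0.94 (limma adjusted p 6.3e-05) on the log2 scale. With heregulin they moved by 0.96 and -0.58 (limma adjusted p 9.1e-04 and 0.014). Of 5 luminal markers, KRT18 and KRT8 were higher with TGF-alpha, by 0.91 and 0.61, GATA3 was lower, with a difference of -0.80, and ESR1 and PGR did not pass. The part of these markers in the results below was not tested. TP63 and KRT17 were not analysed here. Over all probe sets, the correlation was 0.988 to 0.994 between arrays of one group and 0.978 to 0.993 between groups. The arrays were scaled together, so a change is relative to the other transcripts, and in bulk RNA a change in the cells present and a change in RNA per cell cannot be told apart.

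The nuclear pore complex is a ring-shaped channel through the nuclear envelope. Y-shaped scaffold complexes line its cytoplasmic and nuclear faces, an inner ring joins them at the membrane, channel proteins rich in phenylalanine and glycine repeats form the permeability barrier, and filaments and a basket stand on the outer and inner sides. Importin alpha proteins bind the classical nuclear localisation signal of a cargo and are carried through the pore by importin beta. RAN in its GTP-bound state releases import cargo in the nucleus and loads export cargo on exportins such as XPO1, and CSE1L returns importin alpha to the cytoplasm. Dividing mammalian cells build new pores in interphase, and several of its parts also act at kinetochores or on the spindle.

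TGF-alpha raised most of the pore and transport genes. Of the 42, 30 were higher and 1 was lower in TGF-alpha cells than in untreated cells at an adjusted p of 0.05, by limma's moderated test with Benjamini-Hochberg adjustment over all 18417 genes. Of all genes, 26% were called in that comparison, 12.5% higher and 13.4% lower. The median change of the 42 was 0.54 on the log2 scale, against -0.01 for all genes. NUP205, NDC1, RANBP1, CSE1L and NUP155 had the largest differences, at 2.43-fold, 2.38-fold, 2.35-fold, 2.34-fold and 2.14-fold higher in TGF-alpha cells. For 35 of the 42 all 3 TGF-alpha arrays were above all 3 untreated arrays, against 19.4% of all genes, and for 2, KPNA5 and KPNA6, all were below, against 20.8%.

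Few of the 42 genes passed the test with AP1510 or heregulin, and the numbers that passed were near the shares over all genes. With AP1510, 0 of 42 were called, against 1.47% of all genes (0.771% higher and 0.7% lower), and 4 of the 42 had an unadjusted p under 0.05 in limma's test, against 2038 of all 18417 genes, a similar share. All 3 AP1510 arrays lay above all 3 untreated arrays for 8 of the 42, against 7.36% of all genes, and below them for 2, against 9.93%. With heregulin, 2 were called higher and 2 lower, against 8.5% of all genes in both directions, 3.45% higher and 5.06% lower. All 3 heregulin arrays lay above the untreated ones for 6 of the 42, against 10.5% of all genes, and below them for 4, against 13.3%. The median change of the 42 was 0.05 with AP1510 and 0.06 with heregulin on the log2 scale. In a test of any difference among the 4 groups (limma's moderated F test), 29 of the 42 passed, against 28.5% of all genes.

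A stricter count took genes that differed from each of the other 3 groups in the same direction, every comparison passing limma's test. TGF-alpha cells stood apart in this way as higher for 26 of the 42, against 7.49% of all genes, and as lower for 0, against 5.97%. Heregulin cells stood apart as lower for 1, NUP210, against 0.787% of all genes, and as higher for 0, against 1.13%. AP1510 cells stood apart for 0 in both directions, against 0.0597% of all genes higher and 0.0271% lower, and so did untreated cells, against 0.364% higher and 0.282% lower. The 26 comprised 7 of the 8 genes grouped here under the Y complex and all 5 grouped under the inner ring. They also held both exportins of the 42, both Ran cycle genes, KPNB1 and 3 importin alpha genes (KPNA1, KPNA2 and KPNA3). The others were NDC1, NUP210, NUP54, NUP62CL, AAAS and NUP88. These counts are those of the main fit. In the 12 refits that leave out 1 array, KPNA1, SEC13, NUP35 and NUP62CL lost their call against heregulin cells in 9, 9, 5 and 4. KPNA1 and XPO1 lost theirs against AP1510 cells in 7 and 3. NUP210 lost its lower call with heregulin in 1 refit against untreated cells and in 3 against AP1510 cells.

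**Figure D1:**
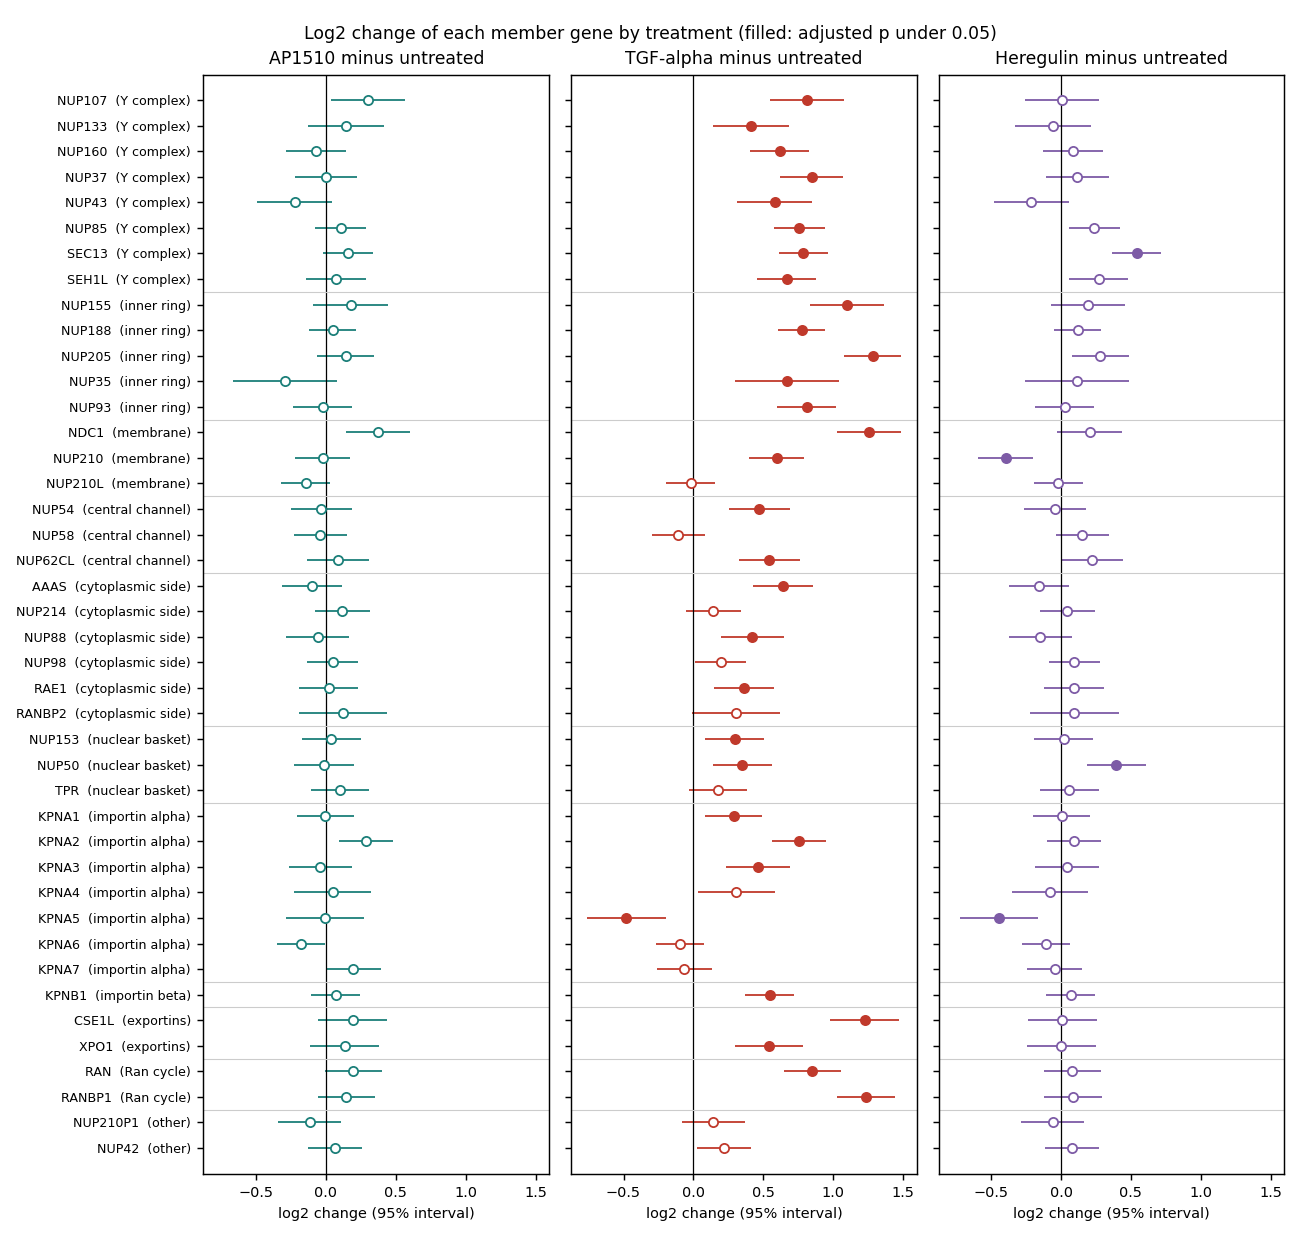
Log2 difference from untreated cells (x axis) for each of the 42 genes (rows, by role), in separate panels for AP1510, TGF-alpha and heregulin, with 95% confidence intervals from the limma fit (n = 3 arrays per group; filled marks passed the test). The TGF-alpha marks lie to the right of 0 for most scaffold, exportin and Ran cycle genes, and the AP1510 marks lie between -0.29 and 0.37.

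Array by array, the median deviation of the 42 genes from their untreated means was 0.13, -0.01 and 0.05 on the AP1510 arrays, 0.45, 0.59 and 0.51 on the TGF-alpha arrays, 0.14, -0.09 and 0.10 on the heregulin arrays, and 0.03, -0.05 and 0.02 on the untreated arrays. The 3 TGF-alpha arrays therefore stood above the other 9. The 10 genes listed as markers of dividing cells (MKI67, TOP2A, CCNB1, CDK1, PLK1, BUB1, AURKA, PCNA, MCM2 and TYMS) were also highest there. Their median deviation was 0.75, 0.45 and 0.36 on the AP1510 arrays, 1.36, 1.58 and 1.57 on the TGF-alpha arrays, 0.14, -0.07 and 0.41 on the heregulin arrays, and -0.02, 0.01 and 0.04 on the untreated arrays. Of these 10 markers, 6 rose with AP1510, 10 with TGF-alpha and 3 with heregulin (MKI67, PLK1 and BUB1), against 0.771%, 12.5% and 3.45% of all genes called higher in these comparisons. Their summed linear intensity ran from 3011 to 3606 on AP1510 arrays, 6191 to 6778 on TGF-alpha arrays, 2306 to 2878 on heregulin arrays and 2188 to 2288 on untreated arrays. The part of dividing cells in the pore gene differences was not tested.

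**Figure D2:**
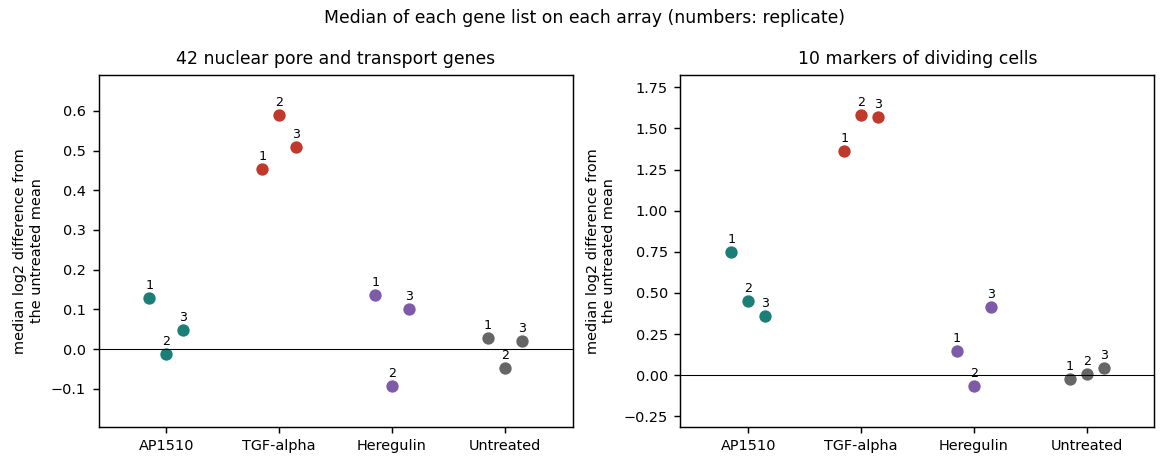
Median log2 deviation from the untreated mean on each of the 12 arrays, for the 42 pore and transport genes and for the 10 markers of dividing cells. Both lie highest on the 3 TGF-alpha arrays; on AP1510 arrays the markers lie at 0.36 to 0.75 and the pore and transport genes at -0.01 to 0.13.

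The DNA around the start site is shown for 4 of the 42 genes. NUP205 had the largest TGF-alpha change, and NUP188 is its neighbour in the inner ring. KPNA2 was the most changed importin alpha, and NUP210 was lowered by heregulin and raised by TGF-alpha. Each stretch is a 300-base window from 250 before to 50 after the RefSeq start site in GRCh38.p14, written 5′ to 3′ on the gene's strand. Capitals mark CACGTG (the E-box of MYC and MAX), CCGGAAGT (an ETS motif), CCAAT (the NF-Y box) or TTTGAA (the cell cycle homology region), searched on both strands. The windows are chr7:135557667-135557966 on the plus strand for NUP205, chr9:128947449-128947748 on the plus strand for NUP188, chr17:68035485-68035784 on the plus strand for KPNA2 and chr3:13420273-13420572 on the minus strand for NUP210.
NUP205: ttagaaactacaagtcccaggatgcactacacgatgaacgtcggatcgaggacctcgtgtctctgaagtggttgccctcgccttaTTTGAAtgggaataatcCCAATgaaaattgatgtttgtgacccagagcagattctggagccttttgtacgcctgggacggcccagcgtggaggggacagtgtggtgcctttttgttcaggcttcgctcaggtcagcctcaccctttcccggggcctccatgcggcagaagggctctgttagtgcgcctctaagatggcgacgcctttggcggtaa
NUP188: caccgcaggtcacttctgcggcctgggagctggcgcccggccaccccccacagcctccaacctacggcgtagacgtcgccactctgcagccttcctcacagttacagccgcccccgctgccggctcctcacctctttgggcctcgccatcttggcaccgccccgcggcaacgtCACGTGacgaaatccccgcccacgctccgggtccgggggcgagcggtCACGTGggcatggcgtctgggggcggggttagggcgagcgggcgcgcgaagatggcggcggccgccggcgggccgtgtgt
KPNA2: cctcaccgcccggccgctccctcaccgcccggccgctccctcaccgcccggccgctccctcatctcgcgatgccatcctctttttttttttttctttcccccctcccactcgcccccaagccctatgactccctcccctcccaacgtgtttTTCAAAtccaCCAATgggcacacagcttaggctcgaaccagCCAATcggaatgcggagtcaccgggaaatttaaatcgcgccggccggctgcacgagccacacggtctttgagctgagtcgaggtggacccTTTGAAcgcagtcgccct
NUP210: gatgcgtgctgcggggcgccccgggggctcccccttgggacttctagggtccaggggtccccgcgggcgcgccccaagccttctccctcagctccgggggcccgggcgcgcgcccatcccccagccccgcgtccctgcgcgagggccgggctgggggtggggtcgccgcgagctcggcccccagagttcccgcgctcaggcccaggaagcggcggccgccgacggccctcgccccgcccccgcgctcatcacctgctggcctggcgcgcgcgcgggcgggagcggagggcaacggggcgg
The KPNA2 window held CCAAT at 2 places and TTTGAA at 2, and the NUP205 window held 1 of each. The NUP188 window held CACGTG at 2 places, and the NUP210 window held none of the 4. Of the other inner ring genes, all raised by TGF-alpha, NUP155 had none of the 4 in its window and NUP93 had 1 CCAAT. The NUP35 window held 1 each of CCGGAAGT, CCAAT and TTTGAA. Windows were available for 35 of the 42 genes. CACGTG was present in 4 of these 35 (11.4%), against 7.43% of 27305 RefSeq promoter windows of the same length. CCGGAAGT was present in 5 (14.3%, against 4.44%), CCAAT in 17 (48.6%, against 35.7%) and TTTGAA in 9 (25.7%, against 15.4%). Among the 27 windows of genes that TGF-alpha raised, CACGTG was in 4, CCGGAAGT in 4, CCAAT in 11 (40.7%) and TTTGAA in 8. Among the 8 windows of the other members, CACGTG was in 0, CCGGAAGT in 1, CCAAT in 6 (75.0%) and TTTGAA in 1. No occurrence of one motif overlapped another in these windows. These shares describe the letters only, and no binding was measured.

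All 8 genes grouped here under the Y complex, the outer scaffold of the pore, rose with TGF-alpha. Their changes were 0.41 to 0.85 on the log2 scale, with a median of 0.71. The 8 are those that the symbol rule took, and not every gene of the complex. SEC13, a scaffold protein that also coats vesicles leaving the endoplasmic reticulum, had levels of 8.06, 8.02 and 7.998 in AP1510 cells, 8.55, 8.75 and 8.66 in TGF-alpha cells, 8.45, 8.37 and 8.40 in heregulin cells and 7.77, 7.95 and 7.89 in untreated cells. Its TGF-alpha and heregulin arrays all lay above the untreated ones, while its AP1510 arrays also lay above them by a small margin. SEC13 was 1.73-fold higher in TGF-alpha than in untreated cells (log2 0.79 ± 0.08, SE, n = 3 each, limma adjusted p 2.2e-06) and 1.45-fold higher in heregulin than in untreated cells (log2 0.54 ± 0.08, limma adjusted p 4.9e-04). It was the Y complex gene with the largest F statistic and the one of the 8 that heregulin raised. NUP37, a beta-propeller subunit of the vertebrate complex, had levels of 7.51, 7.24 and 7.37 in AP1510 cells, 8.17, 8.30 and 8.18 in TGF-alpha cells, 7.42, 7.34 and 7.71 in heregulin cells and 7.32, 7.32 and 7.48 in untreated cells. The TGF-alpha arrays stood clear of the other 9 for this gene, which overlapped one another (log2 0.84 ± 0.10 against untreated cells, limma adjusted p 1.2e-05). NUP85, a scaffold subunit of the short arm, had levels of 7.06, 6.997 and 7.13 in AP1510 cells, 7.61, 7.79 and 7.73 in TGF-alpha cells, 7.26, 7.10 and 7.22 in heregulin cells and 6.99, 6.88 and 7.01 in untreated cells, again with TGF-alpha arrays above all others (log2 0.76 ± 0.09, limma adjusted p 4.4e-06).

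The other 5 Y complex genes were NUP107, NUP133, NUP160, NUP43 and SEH1L, and each had non-overlapping TGF-alpha and untreated arrays. NUP107 rose by 0.81 and NUP133 by 0.41 on the log2 scale. Of the 8, NUP133 had the smallest change and the largest limma adjusted p (0.025), which was 0.11 without untreated replicate 3, 0.071 without TGF-alpha replicate 2 and 0.10 without TGF-alpha replicate 3. With AP1510, NUP107 averaged 7.07 ± 0.18, against 6.77 ± 0.03 in untreated cells (SD, n = 3 each); its AP1510 and untreated arrays did not overlap, but the limma adjusted p was 0.35. NUP160 averaged 8.04 ± 0.03 in TGF-alpha cells and 7.42 ± 0.07 in untreated cells, and rose by 0.62. SEH1L, which also belongs to a regulator of nutrient signalling at the lysosome as SEC13 does, averaged 8.55 ± 0.04 in TGF-alpha cells and 7.88 ± 0.05 in untreated cells, and rose by 0.67. NUP43 averaged 7.29 ± 0.14 in AP1510 cells, 8.10 ± 0.15 in TGF-alpha cells, 7.30 ± 0.24 in heregulin cells and 7.52 ± 0.15 in untreated cells. It rose by 0.58 with TGF-alpha, and its differences of -0.22 with AP1510 and -0.21 with heregulin did not pass (limma adjusted p 0.57 and 0.38).

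The inner ring, which anchors the channel proteins to the membrane, held the gene with the largest change of all 42. NUP205 had levels of 8.79, 8.53 and 8.56 in AP1510 cells, 9.65, 9.80 and 9.85 in TGF-alpha cells, 8.83, 8.63 and 8.84 in heregulin cells and 8.52, 8.50 and 8.44 in untreated cells. The lowest TGF-alpha array lay well above the highest of the other 9, and the heregulin and AP1510 arrays lay slightly above the untreated ones. NUP205 was 2.43-fold higher in TGF-alpha than in untreated cells (log2 1.28 ± 0.10, SE, n = 3 each, limma adjusted p 5.7e-08). NUP188, a large scaffold protein related to NUP205, had levels of 7.83, 7.74 and 7.72 in AP1510 cells, 8.44, 8.46 and 8.57 in TGF-alpha cells, 7.80, 7.88 and 7.82 in heregulin cells and 7.75, 7.66 and 7.74 in untreated cells. Its TGF-alpha arrays were the highest, and the gene was 1.71-fold higher than in untreated cells (limma adjusted p 1.6e-06). NUP155, which joins the inner ring to the other layers, had levels of 7.79, 7.44 and 7.60 in AP1510 cells, 8.40, 8.58 and 8.60 in TGF-alpha cells, 7.79, 7.34 and 7.74 in heregulin cells and 7.55, 7.29 and 7.45 in untreated cells. The heregulin arrays of NUP155 spread more than the untreated ones and overlapped them, and the TGF-alpha arrays overlapped none (log2 1.10 ± 0.13 against untreated cells, limma adjusted p 5.0e-06). NUP93, the scaffold on which NUP188 and NUP205 assemble, had levels of 7.49, 7.31 and 7.52 in AP1510 cells, 8.14, 8.32 and 8.36 in TGF-alpha cells, 7.59, 7.32 and 7.55 in heregulin cells and 7.54, 7.43 and 7.42 in untreated cells. The AP1510, heregulin and untreated arrays of NUP93 overlapped, below the TGF-alpha arrays (log2 0.81 ± 0.10, limma adjusted p 9.8e-06). NUP35, a membrane-binding protein of the inner ring, rose by 0.67 (limma adjusted p 0.0089).

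**Figure D3:**
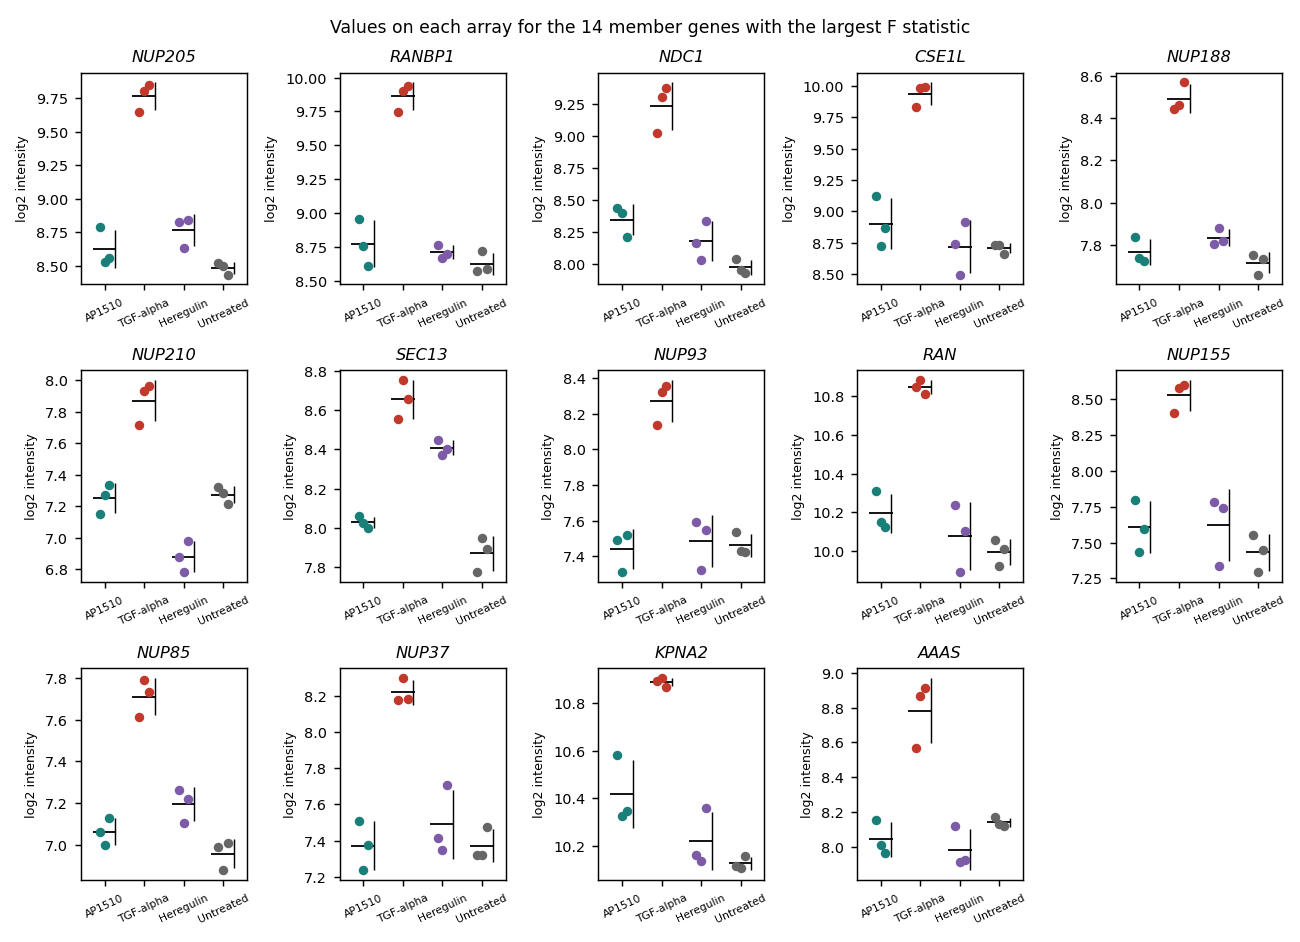
Log2 intensity (y axis) on each of the 12 arrays for the 14 genes with the largest F statistics (panels), with AP1510, TGF-alpha, heregulin and untreated arrays from left to right (line, group mean; bar, 1 SD each way, n = 3). In every panel the TGF-alpha points lie above the untreated points. The heregulin points all lie above the untreated points for SEC13, NUP85, NUP188 and NUP205, and below them for NUP210 and, narrowly, AAAS. Of these heregulin differences, those of SEC13 and NUP210 passed the test.

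Of the 3 membrane pore genes, NDC1 and NUP210 rose with TGF-alpha and NUP210L did not pass the test. NDC1, which anchors the scaffold in the pore membrane, had levels of 8.44, 8.40 and 8.21 in AP1510 cells, 9.02, 9.30 and 9.37 in TGF-alpha cells, 8.17, 8.04 and 8.34 in heregulin cells and 8.05, 7.96 and 7.94 in untreated cells. TGF-alpha arrays were the highest, and the AP1510 arrays were all above the untreated arrays. NDC1 was 2.38-fold higher in TGF-alpha than in untreated cells (log2 1.25 ± 0.11, limma adjusted p 2.4e-07). Its difference in AP1510 cells was 0.37 ± 0.11 on the log2 scale, the largest positive one of the 42 in that comparison, with a limma adjusted p of 0.13. NUP210, a membrane glycoprotein of the pore that many cell types lack, had levels of 7.15, 7.27 and 7.34 in AP1510 cells, 7.72, 7.93 and 7.96 in TGF-alpha cells, 6.88, 6.78 and 6.98 in heregulin cells and 7.32, 7.28 and 7.21 in untreated cells. It was higher on every TGF-alpha array and lower on every heregulin array than on any untreated array. The difference was 0.59 ± 0.09 in TGF-alpha cells (limma adjusted p 1.2e-04) and -0.40 ± 0.09 in heregulin cells (limma adjusted p 0.013), both against untreated cells on the log2 scale. Without untreated replicate 1 the heregulin difference was -0.37 with a limma adjusted p of 0.059. Set directly against each other, heregulin and TGF-alpha cells differed by -0.99 ± 0.09 for NUP210 (limma adjusted p 8.6e-07). NUP210L, its relative known from testis, had group means of 3.27 in AP1510 cells, 3.39 in TGF-alpha cells, 3.39 in heregulin cells and 3.41 in untreated cells, under the 30th percentile of all genes.

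Among 3 channel genes, NUP54 and NUP62CL rose with TGF-alpha and NUP58 did not pass. NUP54 and NUP58 encode partners of NUP62 in the central channel. NUP54 had levels of 7.08, 7.14 and 6.88 in AP1510 cells, 7.45, 7.59 and 7.57 in TGF-alpha cells, 7.15, 6.88 and 7.05 in heregulin cells and 7.19, 6.91 and 7.11 in untreated cells. TGF-alpha arrays lay above the rest, which overlapped (log2 0.47 ± 0.10, limma adjusted p 0.0025). NUP58 averaged 8.33 ± 0.03 in TGF-alpha cells and 8.43 ± 0.09 in untreated cells (SD, n = 3 each; 95% confidence interval of the log2 difference -0.30 to 0.08). NUP58 was the gene of the 42 that was higher in heregulin than in TGF-alpha cells, by 0.26 ± 0.09 with a limma adjusted p of 0.0485. That call was lost when any of 9 of the 12 arrays was left out, with an adjusted p of up to 0.19 without heregulin replicate 3. NUP62CL, a NUP62 relative, rose by 0.54 (limma adjusted p 7.7e-04).

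Of the 6 genes of the cytoplasmic side, AAAS, NUP88 and RAE1 rose with TGF-alpha, and NUP214, NUP98 and RANBP2 did not pass. AAAS, the WD-repeat protein aladin that NDC1 holds at the pore, had levels of 8.15, 8.01 and 7.96 in AP1510 cells, 8.57, 8.87 and 8.91 in TGF-alpha cells, 8.12, 7.91 and 7.92 in heregulin cells and 8.17, 8.13 and 8.12 in untreated cells. TGF-alpha arrays were above all others. The heregulin arrays were all below the untreated ones, but the highest of them (8.120) nearly met the lowest untreated array (8.121). The difference was 0.64 ± 0.10 in TGF-alpha cells (limma adjusted p 1.5e-04) and -0.16 ± 0.10 in heregulin cells (limma adjusted p 0.43) on the log2 scale, both against untreated cells. NUP88, which holds NUP214 at the cytoplasmic face, rose by 0.42. RAE1, a messenger RNA export factor bound by NUP98, rose by 0.36 (limma adjusted p 0.012), and this call was lost without untreated replicate 2 (0.061) or TGF-alpha replicate 2 (0.073). NUP214, NUP98 and RANBP2 differed between TGF-alpha and untreated cells by 0.14, 0.19 and 0.31 on the log2 scale, with 95% confidence intervals of -0.05 to 0.34, 0.01 to 0.38 and -0.01 to 0.62. RANBP2 shares sequence with the RGPD gene family, and its value rests on the 1 probe set that names RANBP2 alone. The probe sets that name RANBP2 with RGPD genes differed by -0.04 to 0.05 between TGF-alpha and untreated cells. Their limma adjusted p over all probe sets was 0.8 or more.

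Of the nuclear basket genes, NUP50 and NUP153 rose with TGF-alpha and TPR did not pass. NUP50, a basket protein that helps take importin alpha apart from its cargo, had levels of 6.68, 6.53 and 6.62 in AP1510 cells, 6.95, 7.005 and 6.96 in TGF-alpha cells, 7.04, 6.82 and 7.19 in heregulin cells and 6.63, 6.73 and 6.50 in untreated cells. Its TGF-alpha and heregulin arrays both lay above all untreated arrays and its AP1510 arrays did not. The difference from untreated cells was 0.35 ± 0.10 with TGF-alpha (limma adjusted p 0.015) and 0.39 ± 0.10 with heregulin (limma adjusted p 0.021) on the log2 scale. The TGF-alpha call was lost without untreated replicate 3 (0.079) or TGF-alpha replicate 2 (0.053). The heregulin call was lost without untreated replicate 1 (0.061) or 3 (0.11), and without heregulin replicate 1 (0.056) or 3 (0.10). NUP50 thus held its call with heregulin in 8 of the 12 refits that leave out 1 array. NUP153, a basket protein with zinc fingers, rose by 0.30 with a limma adjusted p of 0.037, and missed the threshold when any one TGF-alpha or untreated array was left out (0.071 to 0.11). TPR, the filament of the basket, differed by 0.18 (95% confidence interval -0.03 to 0.39).

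Of the 7 importin alpha genes, with TGF-alpha 3 were higher (KPNA1, KPNA2 and KPNA3), 1 was lower (KPNA5) and 3 did not pass (KPNA4, KPNA6 and KPNA7). KPNA2, an importin alpha known to be abundant in dividing cells, had levels of 10.58, 10.32 and 10.35 in AP1510 cells, 10.89, 10.90 and 10.87 in TGF-alpha cells, 10.16, 10.14 and 10.36 in heregulin cells and 10.12, 10.11 and 10.16 in untreated cells. It was highest on the TGF-alpha arrays, its AP1510 arrays also lay above the untreated ones, and its heregulin arrays lay at or just above them with some overlap. KPNA2 was 1.69-fold higher in TGF-alpha than in untreated cells (log2 0.76 ± 0.09, limma adjusted p 8.7e-06), and differed by 0.29 ± 0.09 in AP1510 cells (limma adjusted p 0.17).

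KPNA3 had levels of 8.49, 8.10 and 8.36 in AP1510 cells, 8.81, 8.87 and 8.77 in TGF-alpha cells, 8.49, 8.25 and 8.45 in heregulin cells and 8.45, 8.22 and 8.39 in untreated cells, with TGF-alpha arrays above all others (log2 0.46 ± 0.11, limma adjusted p 0.0037). KPNA1 had levels of 8.61, 8.43 and 8.51 in AP1510 cells, 8.79, 8.87 and 8.77 in TGF-alpha cells, 8.66, 8.38 and 8.54 in heregulin cells and 8.56, 8.38 and 8.62 in untreated cells. The TGF-alpha arrays of KPNA1 lay just above all others. Its change of 0.29 ± 0.10 (limma adjusted p 0.037) missed the threshold without any one TGF-alpha array and without untreated replicate 1 or 2 (0.064 to 0.16). KPNA4, the gene closest to KPNA3 in sequence, had levels of 8.17, 7.77 and 7.87 in AP1510 cells, 8.04, 8.19 and 8.35 in TGF-alpha cells, 8.06, 7.61 and 7.75 in heregulin cells and 7.91, 7.79 and 7.96 in untreated cells. Its TGF-alpha arrays were above the untreated ones, and the difference of 0.31 ± 0.13 had a limma adjusted p of 0.097.

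KPNA5, a relative of KPNA1 and KPNA6, had levels of 4.42, 4.41 and 4.17 in AP1510 cells, 3.71, 3.82 and 4.04 in TGF-alpha cells, 3.97, 3.67 and 4.05 in heregulin cells and 4.07, 4.47 and 4.48 in untreated cells. Its TGF-alpha and heregulin arrays all lay below its AP1510 and untreated arrays. The difference from untreated cells was -0.48 ± 0.13 with TGF-alpha (limma adjusted p 0.012) and -0.44 ± 0.13 with heregulin (limma adjusted p 0.0499). KPNA5 lay under the 30th percentile of all genes, 4.78. Its TGF-alpha call was lost without TGF-alpha replicate 1 (0.064) and without either of untreated replicates 2 (0.058) and 3 (0.063), and its heregulin call in 9 of 12 refits, with an adjusted p of up to 0.20 without untreated replicate 3. KPNA6 had levels of 9.40, 9.34 and 9.49 in AP1510 cells, 9.53, 9.47 and 9.46 in TGF-alpha cells, 9.55, 9.39 and 9.49 in heregulin cells and 9.60, 9.57 and 9.60 in untreated cells. The untreated arrays were the highest for KPNA6, and no difference passed the test (log2 -0.18 with AP1510, -0.10 with TGF-alpha and -0.11 with heregulin). KPNA7, known from oocytes and embryos, had levels of 5.11, 5.08 and 5.25 in AP1510 cells, 4.82, 4.84 and 4.997 in TGF-alpha cells, 4.90, 4.92 and 4.88 in heregulin cells and 5.01, 4.78 and 5.05 in untreated cells. Its AP1510 arrays were above the untreated ones and its TGF-alpha and heregulin arrays overlapped them, and none of the 3 differences passed the test.

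**Figure D4:**
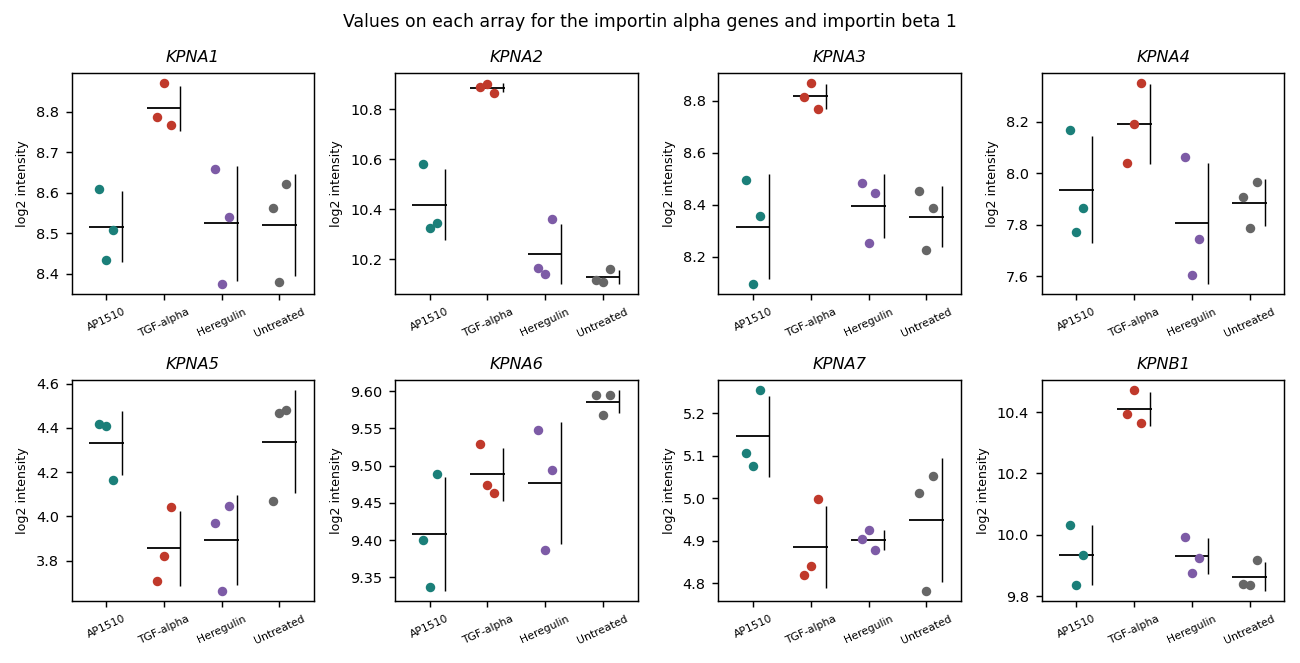
Log2 intensity (y axis, a separate range per panel) of the 7 importin alpha genes and KPNB1 on each of the 12 arrays, with AP1510, TGF-alpha, heregulin and untreated arrays from left to right (line, group mean; bar, 1 SD each way, n = 3). KPNA1, KPNA2, KPNA3 and KPNB1 are highest on the TGF-alpha arrays. KPNA5 is lower on the TGF-alpha and heregulin arrays than on the AP1510 and untreated arrays.

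KPNB1, importin beta, had levels of 10.03, 9.84 and 9.93 in AP1510 cells, 10.39, 10.47 and 10.36 in TGF-alpha cells, 9.99, 9.88 and 9.92 in heregulin cells and 9.84, 9.84 and 9.92 in untreated cells. TGF-alpha arrays were above the other 9, which overlapped, and KPNB1 rose by 0.55 ± 0.08 on the log2 scale (limma adjusted p 9.0e-05). CSE1L, the exportin that returns importin alpha, had levels of 9.12, 8.72 and 8.87 in AP1510 cells, 9.83, 9.98 and 9.99 in TGF-alpha cells, 8.74, 8.50 and 8.92 in heregulin cells and 8.73, 8.73 and 8.66 in untreated cells. The TGF-alpha arrays lay above the other 9, and the heregulin arrays lay around the untreated ones. CSE1L was 2.34-fold higher in TGF-alpha than in untreated cells (log2 1.23 ± 0.12, limma adjusted p 6.7e-07) and differed by 0.01 ± 0.12 in heregulin cells. XPO1, the exportin for cargo with leucine-rich export signals, rose by 0.54 ± 0.12 with TGF-alpha (limma adjusted p 0.0019).

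RANBP1, a cytoplasmic protein that helps RAN hydrolyse GTP, had levels of 8.96, 8.76 and 8.61 in AP1510 cells, 9.74, 9.90 and 9.94 in TGF-alpha cells, 8.77, 8.67 and 8.70 in heregulin cells and 8.57, 8.72 and 8.59 in untreated cells. TGF-alpha arrays stood clear of the other 9, and RANBP1 was 2.35-fold higher than in untreated cells (log2 1.24 ± 0.10, limma adjusted p 9.8e-08). RAN, the GTPase itself, had levels of 10.31, 10.15 and 10.12 in AP1510 cells, 10.84, 10.88 and 10.81 in TGF-alpha cells, 10.24, 9.89 and 10.11 in heregulin cells and 10.06, 9.92 and 10.01 in untreated cells. The AP1510 arrays of RAN all lay above its untreated arrays, the heregulin arrays overlapped them, and the TGF-alpha arrays were higher again (log2 0.85 ± 0.10, limma adjusted p 4.3e-06). RAN has near-identical processed copies in the genome, and the files do not say whether the brighter probe set used here lies in the RAN gene or in such a copy, so its level and its change are uncertain. RAN and KPNA2 each had another probe set, which differed between TGF-alpha and untreated cells by 0.58 for RAN and 0.74 for KPNA2 on the log2 scale.

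NUP42 and the pseudogene NUP210P1 remain of the 42. NUP210P1 had levels of 5.75, 5.59 and 5.33 in AP1510 cells, 5.70, 5.82 and 5.92 in TGF-alpha cells, 5.65, 5.62 and 5.56 in heregulin cells and 5.72, 5.56 and 5.73 in untreated cells. Its groups overlapped except that the TGF-alpha arrays lay above the heregulin arrays, and no difference passed the test (TGF-alpha against untreated cells 0.14, limma adjusted p 0.4). NUP42, a cytoplasmic pore protein that works with the export helicase cofactor GLE1, differed by 0.22 between TGF-alpha and untreated cells (limma adjusted p 0.092).

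The treated groups were also compared with each other. These comparisons reuse the same arrays, so they are given side by side and not as separate evidence. TGF-alpha against AP1510 called 28 of the 42 higher and 1 lower (KPNA5), against 21.6% of all genes in both directions (11.2% higher and 10.4% lower), with a median difference of 0.48 on the log2 scale. RANBP1 differed by 1.09 ± 0.10, NUP205 by 1.14 ± 0.10 and CSE1L by 1.03 ± 0.12 in that comparison. For 32 of the 42 all TGF-alpha arrays lay above all AP1510 arrays, against 18.8% of all genes, and for 2 (KPNA5 and KPNA7) below, against 17.7%. The number called higher was 24 without AP1510 replicate 2 or without TGF-alpha replicate 2. KPNA5 was not called without AP1510 replicate 1 or 2 or TGF-alpha replicate 1 or 2 (0.054 to 0.079).

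Heregulin against TGF-alpha called 1 of the 42 higher (NUP58) and 28 lower, against 21.6% of all genes in both directions (9.88% higher and 11.8% lower), with a median difference of -0.47. CSE1L differed by -1.22 ± 0.12 (limma adjusted p 1.0e-06), RANBP1 by -1.15 ± 0.10 (limma adjusted p 3.1e-07) and NDC1 by -1.05 ± 0.11 (limma adjusted p 2.3e-06). SEC13, which both ligands raised, was lower in heregulin than in TGF-alpha cells, with a difference of -0.25 ± 0.08 (limma adjusted p 0.045), a call lost in 9 of 12 refits without 1 array, with an adjusted p of up to 0.19 without TGF-alpha replicate 2. NUP50 did not pass, with 0.04 ± 0.10 and a 95% confidence interval of -0.17 to 0.26. For 1 gene, NUP58, all heregulin arrays lay above all TGF-alpha arrays, against 16.9% of all genes, and for 30 below, against 17.5%. The number called lower was 22 without heregulin replicate 2.

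Heregulin against AP1510 called 2 higher and 1 lower, against 7.23% of all genes in both directions (3.27% higher and 3.95% lower), with a median difference of 0.01. SEC13 was higher by 0.38 ± 0.08 (limma adjusted p 0.0097), NUP50 was higher by 0.41 ± 0.10 (limma adjusted p 0.02) and NUP210 was lower, with a difference of -0.37 ± 0.09 (limma adjusted p 0.021). Heregulin arrays lay above all AP1510 arrays for 3 of the 42, against 11.3% of all genes, and below them for 3, against 11.4%. NUP50 was not called without AP1510 replicate 2 or 3 or heregulin replicate 1 or 3 (0.051 to 0.091), and NUP210 was not called without AP1510 replicate 2 or 3 or heregulin replicate 2 (0.074 to 0.094).

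**Figure D5:**
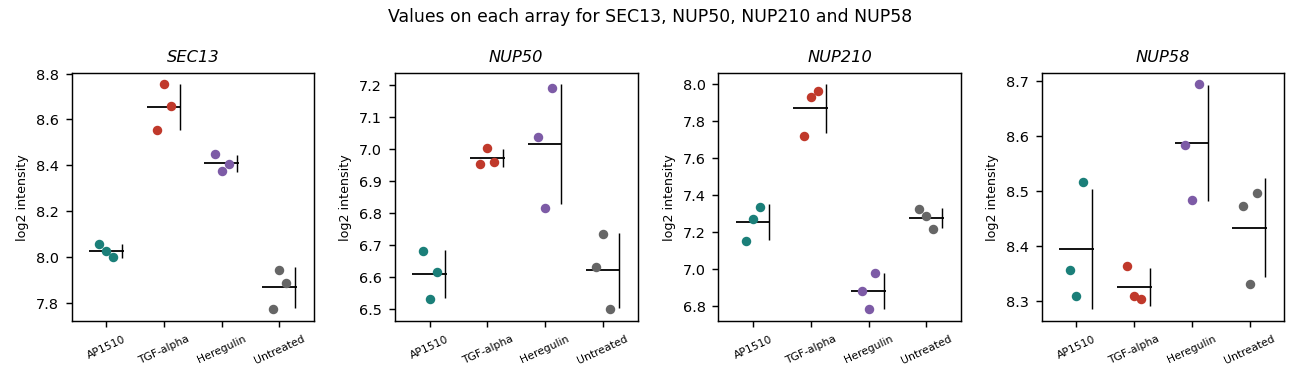
Log2 intensity (y axis) on each of the 12 arrays for SEC13, NUP50, NUP210 and NUP58, with AP1510, TGF-alpha, heregulin and untreated arrays from left to right (line, group mean; bar, 1 SD each way, n = 3). On every heregulin array SEC13 and NUP50 lie above and NUP210 below all untreated arrays, and NUP58 lies above all TGF-alpha arrays.

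Lists of other genes of nuclear transport and the nuclear envelope were read from the same fit, beside the 12.5% of all genes called higher and 13.4% called lower with TGF-alpha. Of 15 other karyopherins, 10 were higher and 0 lower in TGF-alpha than in untreated cells. XPOT, the exportin for transfer RNA, was 2.63-fold higher (limma adjusted p 9.7e-08), IPO5, an importer of ribosomal proteins, 1.66-fold (limma adjusted p 1.6e-05), and XPO6, the exportin for actin, 1.55-fold (limma adjusted p 8.1e-05). Of 6 Ran regulators measured of 7 listed, 2 were higher, RANGAP1 by 1.42-fold and RANGRF by 1.32-fold, and 1 was lower, RANBP10 by 1.27-fold. RANGAP1 is the GTPase-activating protein of RAN. Of 4 other pore-associated genes measured of 9 listed, 0 passed limma's test and 0 had an unadjusted p under 0.05. Of 12 messenger RNA export genes measured of 16 listed, 5 were higher and 0 lower, with DDX39A at 1.85-fold, ALYREF at 1.79-fold and THOC7 at 1.4-fold. Of 13 genes of the nuclear lamina and inner membrane, 7 were higher, among them LMNB1 (2.02-fold), TMPO (1.88-fold) and LMNB2 (1.71-fold), and 1, SUN2, was lower (1.28-fold). LMNB1 and LMNB2 encode the B-type lamins that underlie the nuclear envelope. The median difference between TGF-alpha and untreated cells was 0.47 for the karyopherins, 0.18 for the Ran regulators, 0.11 for the other pore-associated genes, 0.29 for the export genes and 0.30 for the lamina genes on the log2 scale. In AP1510 and in heregulin cells, 0 genes of these lists passed limma's test against untreated cells. At an unadjusted p under 0.05 there were 2 with AP1510, both of the lamina list, against 2038 of all 18417 genes, and with heregulin 3 karyopherins, 2 export genes and 3 lamina genes, against 3734 of all genes. Neither is more than the share over all genes. RCC1 and AHCTF1 were not analysed here.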

How the data were processed

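The values are log2 intensities of 33297 probe sets on 12 arrays, deposited by the authors after RMA, per the submitters' processing notes, which give no version or settings. RMA ordinarily corrects background, equalises the arrays' distributions and summarises probes. Depth does not apply to arrays; the 3 arrays per group limit the precision. Probe sets were named from GEO's platform annotation: 19460 name 1 gene, 1754 several and 12083 none. Each of 18417 genes was read from its brightest one-gene probe set, by the mean of the 12 arrays. The 4 group means were fitted together over all arrays (limma 3.58.1 in R 4.3.3, lmFit and eBayes), tested on simulated data first. Differences have the fit's SE, two-sided moderated p-values and Benjamini-Hochberg adjustment over all genes per comparison, with calls at 0.05. Replicates were numbered in accession order and pair nothing. The sources used here name no batch.

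The members and lists were chosen with earlier results of these data known. Array values are given for the 14 members with the largest F statistic, the top member of each role, every importin alpha and members called lower against untreated cells, 24 in all. From related lists at most 3 called genes per direction are named. Promoter windows are from RefSeq, GRCh38.p14, matched by the Entrez gene identifier that the probe annotation gives for each symbol. The alternatives were renewed quantile normalization, a trend and robust prior, array weights, no dim genes, the mean over a gene's probe sets, a fit on the 6 arrays of a comparison, and leaving out each array.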

Additional observations from a re-analysis of the deposited data

How the results depend on the processing

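No paired analysis was possible because the labels give no replicate numbers; those used here follow accession order. No called member value changed sign. Of 133 member differences that passed neither in the main fit nor in any alternative, 53 had the opposite sign in at least 1 setting. The medians of heregulin against untreated and against AP1510 cells crossed 0 when some arrays were left out. With TGF-alpha, over the 12 refits without 1 array, 25 to 30 members were higher and 0 to 1 lower than in untreated cells (25 without TGF-alpha replicate 2), with a median of 0.50 to 0.55 and 3982 to 5184 genes called. Of its 31 member calls 25 held in every setting; KPNA1, KPNA5, NUP133, NUP153, NUP50 and RAE1 did not. Without dim genes 0 members were lower, since KPNA5 is dim. With a trend and robust prior 1 member (KPNA2) was higher in AP1510 than in untreated cells; leaving out arrays gave 0 in each direction, medians of 0.02 to 0.10 and 95 to 327 genes called (95 without AP1510 replicate 1). For heregulin against untreated cells, array weights gave 3000 genes, 9 members higher and 1 lower (weights of 0.58, 0.32 and 4.62 for heregulin replicates 1, 2 and 3), the 6-array fit 1 higher and 1 lower, and dropping dim genes 1 lower. Leaving out arrays gave 1039 to 1602 genes, 1 to 4 members higher, 1 to 2 lower and medians of 0.00 to 0.12. Of the 4 heregulin calls, SEC13 held in every setting and NUP50, NUP210 and KPNA5 did not. For TGF-alpha against AP1510, array weights gave 2 members lower; leaving out arrays gave 24 to 29 higher, 0 to 2 lower, 3164 to 4343 genes and medians of 0.43 to 0.53. For heregulin against AP1510, array weights gave 2452 genes, 6 members higher and 2 lower, the 6-array fit 743 genes, 1 higher and 0 lower, and renewed quantile normalization or the trend and robust prior 2 lower; leaving out arrays gave 818 to 1323 genes, 1 to 3 higher, 0 to 2 lower and medians of -0.06 to 0.07. For heregulin against TGF-alpha, the 6-array fit gave 0 members higher; leaving out arrays gave 0 to 1 higher, 22 to 28 lower, 3145 to 3988 genes and medians of -0.51 to -0.37. The cause of these differences was not tested, other than the smaller number of arrays or genes where those were dropped.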

Other observations

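Pore genes that only several-gene probe sets name could not be counted with the 42, and their values are given here over all probe sets. NUP62, the channel protein that NUP54 and NUP58 bind, shares its probe set with IL4I1, which averaged 6.48 in AP1510 cells, 6.57 in TGF-alpha cells, 6.54 in heregulin cells and 6.56 in untreated cells. The difference between TGF-alpha and untreated cells was 0.01 ± 0.09 on the log2 scale (SE, n = 3 each, limma adjusted p over all probe sets 0.96). POM121, a membrane protein of the pore, shares its probe sets with POM121C and other relatives. Both probe sets that name POM121C and POM121 alone were higher in TGF-alpha than in untreated cells, by 0.70 ± 0.15 (limma adjusted p 0.0056) and 0.42 ± 0.12 (limma adjusted p 0.038). Of the 3 that name further genes as well, the one with PMS2P3 was higher by 0.38 ± 0.08 (limma adjusted p 0.0075) and the one with POMZP3 by 0.42 ± 0.10 (limma adjusted p 0.0089). The last probe set, shared by POM121C, POMZP3, POM121 and ZP3, differed by 0.03 ± 0.11 (limma adjusted p 0.91).

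RAN and KPNA2 were each measured by another probe set than the one used. For KPNA2 it gave 10.53, 10.29 and 10.31 in AP1510 cells, 10.85, 10.86 and 10.83 in TGF-alpha cells, 10.10, 10.10 and 10.38 in heregulin cells and 10.08, 10.07 and 10.15 in untreated cells, and TGF-alpha cells differed from untreated cells by 0.74 ± 0.10 (limma adjusted p over all probe sets 1.7e-04). For RAN it gave 8.91, 8.81 and 8.68 in AP1510 cells, 9.19, 9.40 and 9.31 in TGF-alpha cells, 8.91, 8.75 and 8.90 in heregulin cells and 8.68, 8.70 and 8.77 in untreated cells. TGF-alpha cells differed from untreated cells by 0.58 ± 0.09 on this RAN probe set (limma adjusted p 5.3e-04), against 0.85 ± 0.10 on the one used.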
